A study of Mus musculus with 6 samples.

Results

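The kallikreins are secreted serine proteases of the epidermis, and Spink5 encodes LEKTI, the Kazal-type inhibitor that restrains them. In the granular and horny layers KLK5 and KLK7 cut the proteins that hold dead corneocytes together, so that the surface can shed. LEKTI binds KLK5, KLK7 and KLK14, and its loss causes Netherton syndrome, in which the barrier peels off too early. The 10 genes described here are Klk5, Klk6, Klk7, Klk8, Klk9, Klk10, Klk11, Klk13, Klk14 and Spink5. They were taken by their symbols from the 31053 genes in the single-cell count matrices, and all 10 were found.

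Dorsal skin of female C57BL/6 mice, 8 to 10 weeks old, was profiled by droplet-based single-cell RNA sequencing in 3 groups of 2 libraries each. Sham mice, titled Normal in the labels, were untreated. IMQ mice had 62.5 mg of cream with 5% imiquimod (IMQ), an agonist of the receptor TLR7 that causes psoriasis-like inflammation, put on shaved dorsal skin daily for 4 days. IMQ+SHP099 mice had the same cream and were also dosed by mouth with 10 mg/kg of SHP099 per day, a compound that blocks the phosphatase SHP2 allosterically. In the paper each library pooled the skin of 2 mice in Sham and 3 mice in the IMQ and IMQ+SHP099 groups. Pool size thus differed between Sham and the treated groups. A library is the replicate, individual mice cannot be told apart, and p-values measure the spread between pools. The comparisons ask how the proteases and their inhibitor are spread over the layers of the epidermis, how IMQ changed them, and whether SHP099 altered the IMQ levels.

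The 6 libraries held 53913865 to 188283327 unique molecular identifiers (UMIs, counted RNA molecules), and 50850 of 55201 barcodes passed the filters. Of the kept barcodes, 294 sequences occurred in more than 1 library. By marker scores 16063 cells were keratinocytes, of which 7844 fell in a basal gate (Krt5, Krt14, Krt15 and basement membrane genes), 6120 in a suprabasal gate (spinous genes such as Krt1 and Krt10, or granular genes such as Lor and Flg) and 852 in an upper follicle gate (Krt79, Krt17, Cst6 and others). No gate used a kallikrein or Spink5. The summed basal markers reached 19460 to 31290 CPM in the basal gate against 4131 to 19763 in the suprabasal gate, and the upper follicle markers 28002 to 51448 in their gate against at most 7589 in the other two. Within 0.5 score units of another layer lay 34.5% to 51.0% of the upper follicle cells, so that gate is the least clear of the 3. All levels are given as CPM, the UMIs of a gene per 1000000 UMIs of the gate's cells in a library. Since 1 UMI stands for 1 captured 3′ end, they are not divided by transcript length, and capture may differ between genes.

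Apart from Klk14, each gene had most of its UMIs in keratinocytes. Of 10392 Klk5 UMIs 98.6% were in keratinocytes, and the share was 98.2% of 37308 for Spink5, 97.7% of 33886 for Klk7, and lowest for Klk8 with 93.8% of 35148. Klk8 was not confined to them: per UMI, cells led by lymphocyte markers held 90.2 to 184 CPM of Klk8 against 53.4 to 151 in all keratinocytes. Klk14, which encodes another trypsin-like protease that LEKTI inhibits, had only 206 UMIs in all, 32.0% of them in keratinocytes. A further 64.1% were in 2 cells of IMQ replicate 2 that were led by keratinocyte genes but fell below the score cut. Klk14 had at most 12 UMIs in any gate of any library. In no comparison of groups within a gate or of gates did it pass the filter on low counts in the main fits. In fits that did take it in, it was called in none of the tests of the gate interaction (adjusted p = 0.860 for IMQ against Sham), and at these counts a change would not be detectable in the gates.

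The 9 kallikrein genes share one stretch of chromosome 7. In the GRCm38 annotation they lie between positions 43690418 and 43851181, a span of 160.764 kb, on the plus strand in the order Klk14, Klk13, Klk11, Klk10, Klk9, Klk8, Klk7, Klk6 and Klk5, with Klk12 between Klk13 and Klk11. The antisense gene 2310002F09Rik overlaps 6 of the 9, from Klk14 to Klk8. Whether reads were counted by strand is not given in the sources used here, so reads of that gene could have entered the counts of those 6. Klk10 and Klk13 had the largest log2 increases after IMQ in the suprabasal gate, so the sequences upstream of their RefSeq start sites (GRCm38.p6, plus strand, from base 250 to base 21 before the start) are shown, with a match to a STAT-type motif in capitals.
Klk10, chr7:43780804-43781033: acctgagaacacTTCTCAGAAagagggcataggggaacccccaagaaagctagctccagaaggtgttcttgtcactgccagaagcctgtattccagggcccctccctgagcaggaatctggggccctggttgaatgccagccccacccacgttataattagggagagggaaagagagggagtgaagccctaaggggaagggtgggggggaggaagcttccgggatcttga
Klk13, chr7:43712317-43712546: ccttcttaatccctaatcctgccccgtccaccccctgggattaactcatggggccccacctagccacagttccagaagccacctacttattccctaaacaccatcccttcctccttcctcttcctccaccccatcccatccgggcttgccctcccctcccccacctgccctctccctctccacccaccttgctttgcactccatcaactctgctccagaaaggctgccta
A total of 5 motifs were searched on both strands in the upstream windows of the 9 kallikreins. They were AP-1 (TGANTCA, in 6.32% of 32531 promoter windows of the same length), the TATA box (TATAAA, 11.7%), STAT (TTCNNNGAA, 6.50%), GRHL (AACCGGTT, 0.117%) and CRE (TGACGTCA, 1.29%). The only match was the STAT-type motif of Klk10, at bases -238 to -230 from the start on the plus strand. Klk13, which changed much like Klk10, had none of these letters in its window.

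Across the layers, with all 3 groups in 1 fit, the genes were higher above the basal layer. All 9 tested genes were higher in the suprabasal than in the basal gate by edgeR's quasi-likelihood test with the library as a block, where 55.5% of 11782 genes were called in either direction at an adjusted p under 0.05. Klk7 had the largest difference, with a log2 fold change of 6.46 (SE 0.38, adjusted p = 7.64e-06). Klk5 followed with 6.21 (SE 0.43) and Klk6, a trypsin-like protease also known from the nervous system, with 6.14 (SE 0.25). Spink5, which lies apart from the cluster, differed by 4.50 (SE 0.32, adjusted p = 1.72e-05), Klk13 by 4.29, Klk8 by 3.72, Klk9 by 3.11 and Klk11 by 2.80. Klk10 differed least, by 1.5 (SE 0.48, adjusted p = 0.0276), and this call was lost without any 1 of the 4 IMQ or IMQ+SHP099 libraries (adjusted p from 0.0627 to 0.086). In Sham alone Klk10 was not higher, at 12.4 and 16.8 CPM in the basal gate against 5.79 and 20.4 in the suprabasal gate. The median over the 9 was 4.29 and over all genes 0.00.

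The upper follicle had a makeup of its own, led by Klk7. Klk7 encodes the chymotrypsin-like protease of the corneocyte junctions, and it stood at 672 and 1026 CPM in Sham. Its CPM values were 350.0 and 794 after IMQ, and 618 and 688 with SHP099 added. It was the highest of the 9 kallikreins there in every library and made up 42.0% to 73.8% of their sum. Against the basal gate 7 of 9 tested genes were higher, with 41.9% of 10435 genes called. Klk6 differed by 9.29 on the log2 scale (SE 0.29, adjusted p = 4.20e-07), Klk7 by 8.95 (SE 0.58) and Klk5 by 6.43 (SE 0.50). Spink5 differed by 3.93, Klk8 by 3.58, Klk13 by 2.45 and Klk9 by 1.5, while Klk10 (1.02, adjusted p = 0.0622) and Klk11 (1.14, adjusted p = 0.0604) did not pass the test. The Klk13 call was lost without Sham replicate 2, IMQ replicate 2 or IMQ+SHP099 replicate 2 (adjusted p from 0.0614 to 0.0898), and the Klk9 call without the last of these (adjusted p = 0.0582).

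**Figure D1:**
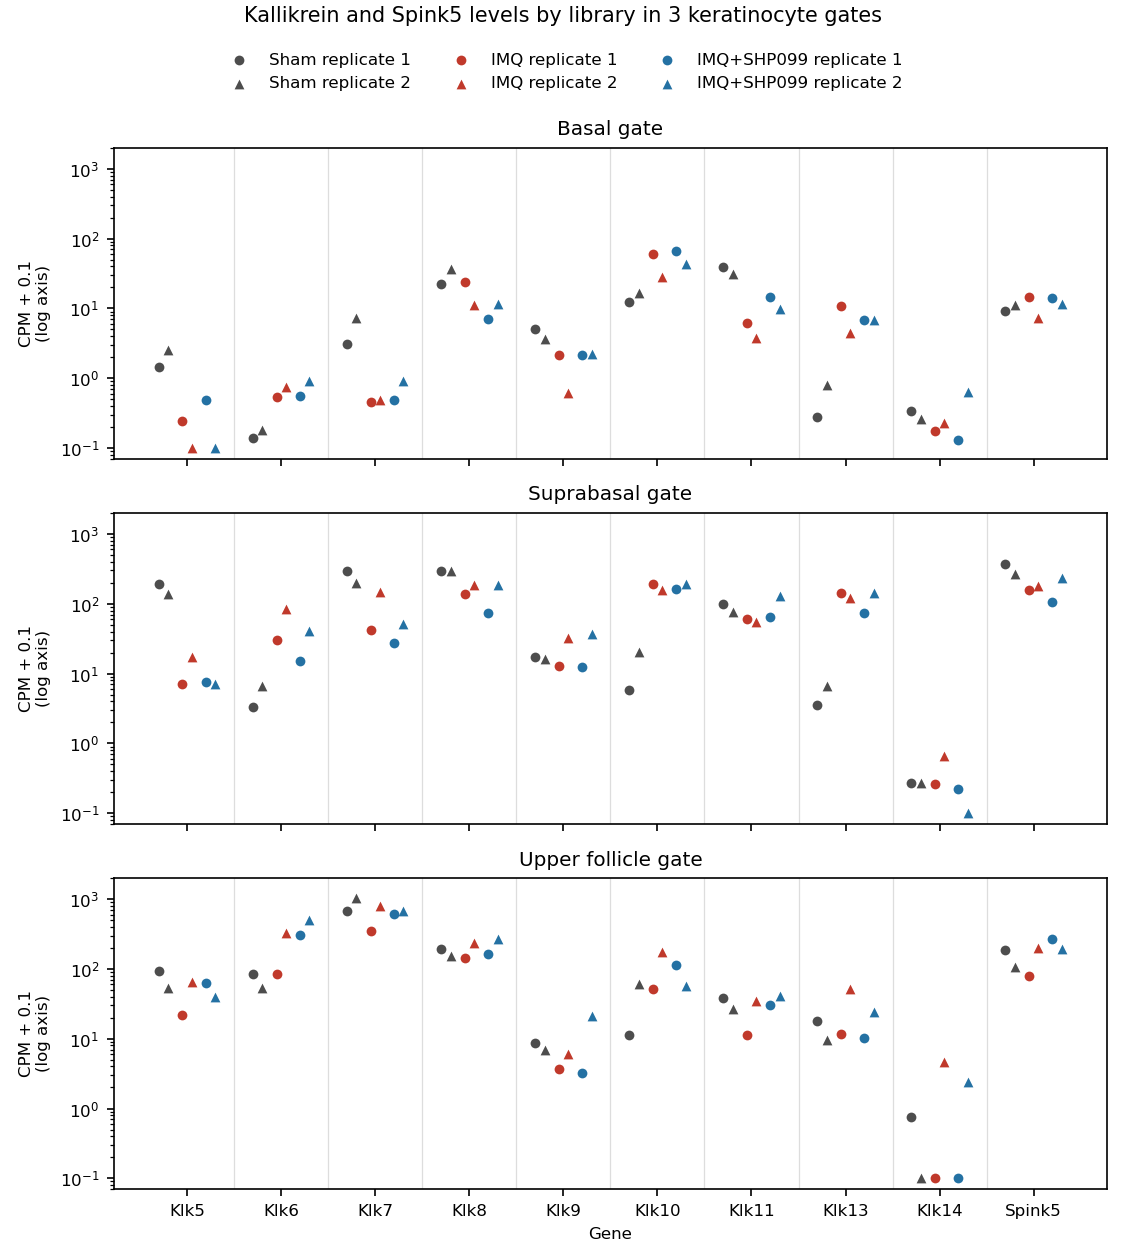
Levels of the 10 genes in CPM (log axis, 0.1 added) in the 6 libraries, 1 panel for each of the 3 gates, with each point 1 library, its colour the group and its shape the replicate. In the suprabasal panel the Klk5 points of the IMQ-treated libraries lie at 6.94 to 17.2, below both Sham points, while their Klk10 points lie at 158 to 194 and their Klk13 points at 73.1 to 143, above both Sham points.

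In Sham suprabasal cells the inhibitor and the shedding proteases were the most abundant of the set. Spink5 was at 373 and 265 CPM in the 2 libraries, Klk8 at 296 and 292, Klk7 at 295 and 198, and Klk5 at 189 and 138. Spink5, Klk8 and Klk7 overlapped with their neighbours in this order, whereas Klk5 lay below all 3 in both libraries. Klk11, a trypsin-like kallikrein, was at 99.9 and 77.1, and Klk9 at 17.0 and 16.1. Klk10 (5.79 and 20.4), Klk13 (3.46 and 6.57) and Klk6 (3.19 and 6.57) were the lowest of the tested genes by their means and overlapped with each other, and Klk10 overlapped with Klk9 as well.

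In the suprabasal gate of IMQ libraries Klk10, Klk13 and Klk6 were higher and Klk5 was lower than in Sham. Of the 9 tested genes 3 rose, 1 fell and 5 did not pass the test, where 17.5% of 12812 genes were called. Klk13 rose from 3.46 and 6.57 CPM to 143 and 121. Its log2 fold change was 5.08 (SE 0.40, adjusted p = 0.000186), so that a gene near the bottom of the Sham order came to lie near Klk8. Klk10 rose from 5.79 and 20.4 to 189 and 158, a log2 fold change of 4.14 (SE 0.48, adjusted p = 0.000828). Klk6 rose from 3.19 and 6.57 to 30.4 and 84.2, a log2 fold change of 3.90 (SE 0.59, adjusted p = 0.00289). The IMQ libraries did not overlap with Sham for any of these 3 genes, although the Klk6 levels of the IMQ libraries lay far apart.

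Klk5, the trypsin-like protease that can activate itself and Klk7, went the other way. It fell from 189 and 138 CPM in Sham to 6.94 and 17.2 in IMQ libraries, a log2 fold change of -3.54 (SE 0.47, adjusted p = 0.00148). The 2 groups did not overlap. Klk7 was at 41.8 and 148 in IMQ libraries, also below Sham, but the log2 difference of -1.15 (SE 0.56) did not pass (adjusted p = 0.191). Without IMQ replicate 2 the log2 difference was -2.28. With all libraries and no count filter it was -1.17 and passed (adjusted p = 0.00847), with 16.3% of 19502 genes called. The Klk7 result thus depends on that library and on the filter.

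Spink5, Klk8 and Klk11 were lower in both IMQ libraries than in both Sham libraries, yet none of them passed the test. How many of all genes lay apart in this way was not counted. Spink5 was at 157 and 179 against 373 and 265 in Sham, a log2 difference of -0.67 (SE 0.41, 95% interval -1.60 to 0.25, adjusted p = 0.289). Klk8 was at 136 and 185, a log2 difference of -0.60 (SE 0.39, 95% interval -1.50 to 0.30, adjusted p = 0.329). Klk11 was at 59.5 and 55.4, a log2 difference of -0.36. Klk9 (12.9 and 31.9, log2 difference 0.69) overlapped with Sham and did not pass either. The median log2 difference over the 9 genes was -0.36, beside -0.06 over all genes, and its sign was not stable. It was 0.08 without Sham replicate 1, 0.16 without IMQ+SHP099 replicate 2, 0.15 with no count filter (10 genes), 0.17 in the top differentiation bin and 0.34 with no layer gate.

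The summed kallikrein level changed less than its makeup. The 9 genes together gave 910 and 755 CPM in the Sham suprabasal gate. Their sums were 619 and 800.0 after IMQ, and 439 and 790 with SHP099 added, so IMQ replicate 2 and IMQ+SHP099 replicate 2 lay within the Sham range. Klk5 made up 20.8% and 18.2% of this sum in Sham and 0.884% to 2.15% in the other 4 libraries. Klk10 and Klk13 together went from small parts to the larger ones, with Klk10 at 0.636% and 2.70% in Sham and 19.7% to 37.5% in the other 4, and Klk13 at 0.380% and 0.870% against 15.1% to 23.1%. The ratio of summed kallikrein UMIs to Spink5 UMIs was 2.44 and 2.85 in Sham. It was 3.95 and 4.46 after IMQ, and 4.21 and 3.33 with SHP099 added. These ratios of RNA levels were not tested and say nothing of enzyme activity.

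**Figure D2:**
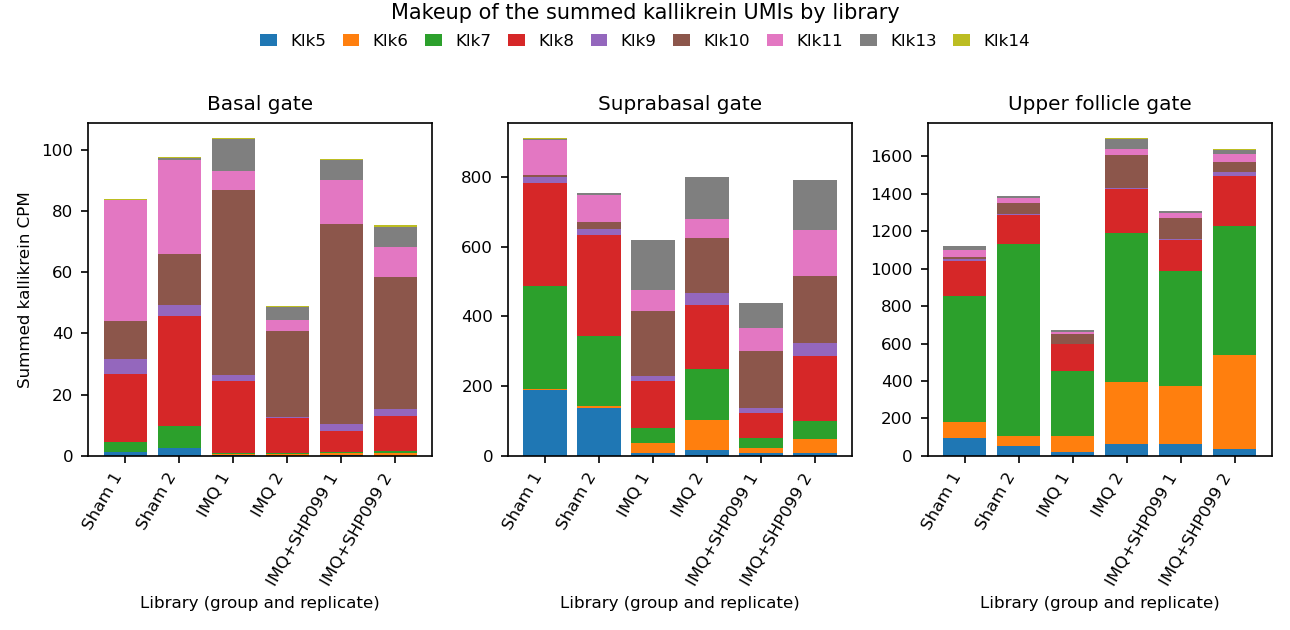
Stacked bars of the summed CPM of the 9 kallikreins in each of the 6 libraries, 1 panel per gate with its own linear axis from 0, and each colour 1 gene. In the suprabasal panel Klk5 makes up 20.8% and 18.2% of the Sham bars and at most 2.15% of the other 4, and in the upper follicle panel Klk7 is the largest part of every bar.

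With SHP099 on top of IMQ, no gene of the set differed from IMQ alone in the suprabasal gate. Of 9 tested genes 0 were called by edgeR, 1 had an unadjusted p under 0.05, and DESeq2 called 0. The background was 0% of 12812 genes called by edgeR, 401 of them with an unadjusted p under 0.05. Klk11 had the smallest unadjusted p (0.0473), with 65.2 and 129 CPM in IMQ+SHP099 against 59.5 and 55.4 in IMQ libraries, a log2 difference of 0.82 (95% interval 0.01 to 1.63, adjusted p = 1). Klk7 was at 27.6 and 51.6 against 41.8 and 148, a log2 difference of -1.18 (95% interval -2.47 to 0.10). Klk6 was at 15.0 and 40.9 against 30.4 and 84.2, a log2 difference of -1.0 (95% interval -2.20 to 0.20). The groups overlapped for both. For Klk13 (73.1 and 143, log2 difference -0.23, 95% interval -0.98 to 0.53), Klk10 (165 and 194, 0.14, -0.81 to 1.09) and Spink5 (104 and 237, 0.08, -0.84 to 1.01) the intervals still allow changes of nearly 1 log2 unit or more, so an equal level is not shown.

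Against Sham, IMQ+SHP099 gave 3 genes higher and 2 lower of the 9 tested in the suprabasal gate, with 18.6% of 12812 genes called. This contrast shares its Sham libraries with the one above. Klk13 was higher by 4.85 on the log2 scale (SE 0.40, adjusted p = 0.000207), Klk10 by 4.28 (SE 0.48, adjusted p = 0.000746) and Klk6 by 2.90 (SE 0.58, adjusted p = 0.0103). Klk5 was at 7.47 and 6.98 CPM and fell by 4.11 on the log2 scale (SE 0.49, adjusted p = 0.000943). Klk7 fell by 2.33 (SE 0.58, adjusted p = 0.0257). The Klk7 call was lost without Sham replicate 1 (adjusted p = 0.104) or either IMQ+SHP099 library (0.199 and 0.0882), and when cells with high Krt79 were kept in the gate (log2 -1.15, adjusted p = 0.204). The Klk6 call was lost without Sham replicate 1 (0.0677) or IMQ+SHP099 replicate 2 (0.0528).

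**Figure D3:**
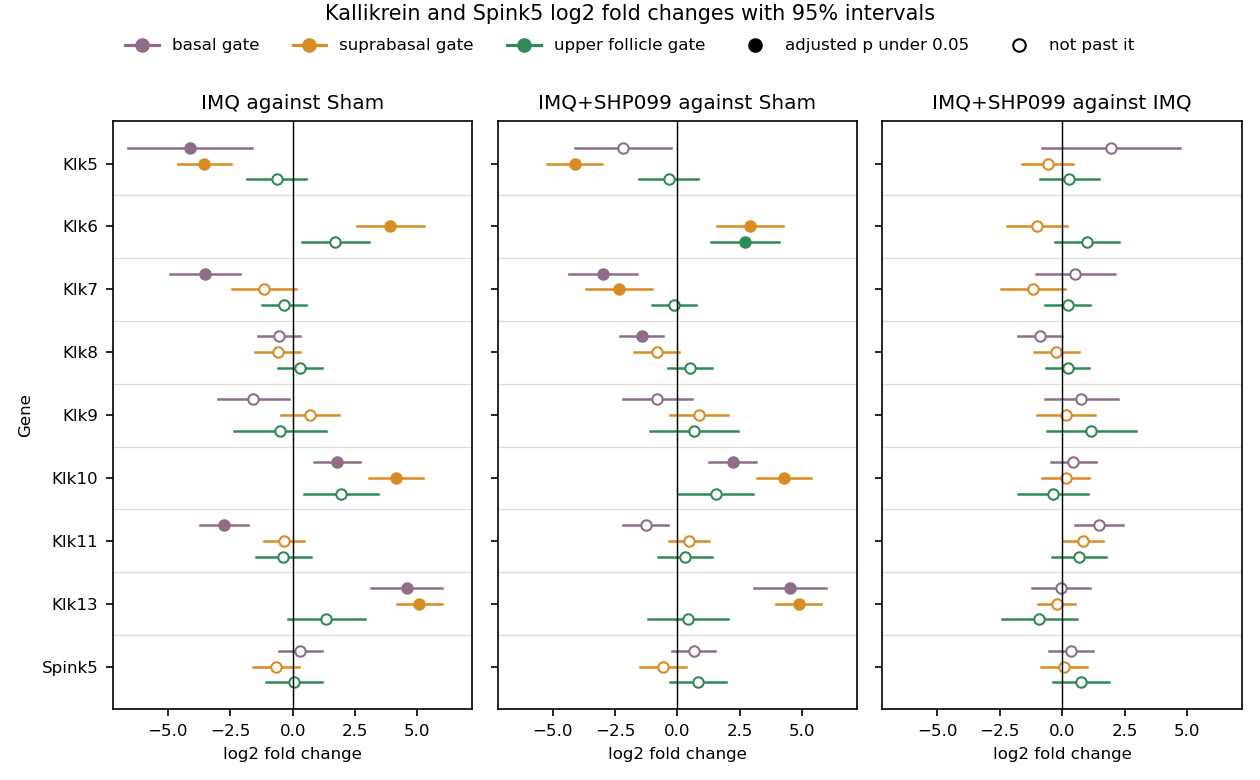
Log2 fold changes of the 9 genes other than Klk14 with 95% intervals from edgeR's quasi-likelihood fit, 1 panel per comparison and 1 colour per gate, filled where the adjusted p was under 0.05. In the IMQ against Sham panel the suprabasal points of Klk10, Klk13 and Klk6 lie at 4.14, 5.08 and 3.90 and that of Klk5 at -3.54, while no point is filled in the panel of IMQ+SHP099 against IMQ.

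The suprabasal cells of the groups also differed in other ways. Their median depth was 12662 and 18679 UMIs per cell in Sham and 25858.5 to 37494 in the other 4 libraries. The summed basal markers of the suprabasal cells were at 4131 and 5964 CPM in Sham against 13520 to 19763, the spinous markers at 43692 and 46456 against 16553 to 21864, and the upper follicle markers at 1020 and 1330 against 5744 to 7589. The myeloid list reached 43575, nearly all of it S100a8, and its other 7 genes were at 26.5 to 54.5 in the IMQ-treated libraries against 236 and 254 in Sham. The part of these shifts in the changes above was not tested.

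Cells were also binned by the suprabasal score minus the basal score, at -1, 0, 1 and 2. In the top bin, which holds the most differentiated cells, Klk5 was at 259 and 196 CPM in Sham. After IMQ it was at 13.1 and 38.4, and with SHP099 added at 19.1 and 12.7. Klk13 was at 4.53 and 6.72, 193 and 174, and 96.9 and 177 in the same order. Klk10 was at 4.72 and 11.5, 171 and 160.5, and 125 and 123. With cells of the top bin alone, 4 of 9 genes were called in IMQ against Sham (3 higher and 1 lower), with 18.6% of 11550 genes called. In IMQ+SHP099 against Sham 5 of 9 were called, with 16.4% of all genes called. The top bin has no upper bound, and the scores within it were not matched between groups. The bins also showed that Klk10 did not peak in the top bin: in IMQ libraries it was at 224 and 190 in the fourth bin against 171 and 160.5 in the top one. Klk13, Klk8, Klk11 and Spink5 were highest in the top bin of both IMQ libraries.

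**Figure D4:**
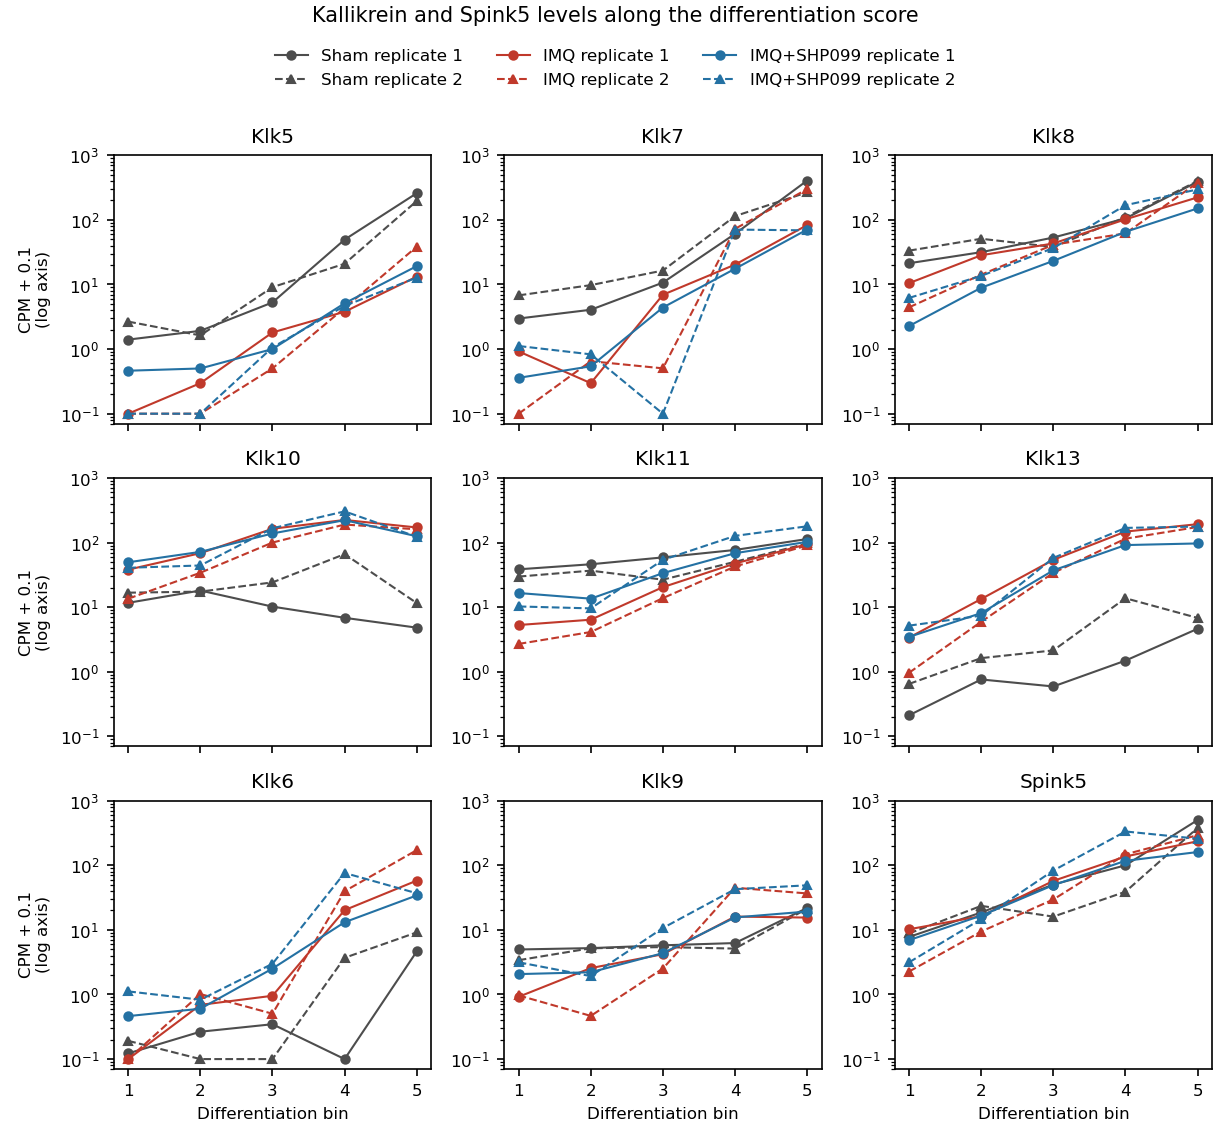
Levels in CPM (log axis, 0.1 added) over 5 bins of the suprabasal minus basal marker score, 1 panel per gene and 1 line per library coloured by group. Klk5 climbs to 259 and 196 in the top bin of the Sham libraries and to at most 38.4 in the others, and Klk11 in the lowest bin is at 38.5 and 29.7 in Sham against 2.60 to 16.5 in the others.

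The same changes appeared in the share of cells with at least 1 UMI when each cell was thinned to 2000 UMIs, which removes the depth gap. Klk5 was found in 14.7% (exact 95% interval 13.2% to 16.3%) and 11.8% (9.30% to 14.8%) of Sham suprabasal cells. It was found in 0.775% (0.252% to 1.80%) and 3.03% (1.39% to 5.67%) after IMQ, and in 1.60% (1.13% to 2.20%) and 1.94% (0.401% to 5.55%) with SHP099 added. Klk10 was found in 0.991% and 3.30% of Sham cells and in 20.3% to 25.8% in the other 4 libraries. Klk13 was found in 0.595% and 0.522% against 10.9% to 27.1%. In fibroblasts, which should lack these genes, the thinned share was at most 0.107% for Klk5, 0.434% for Klk10 and 0.108% for Klk13, at median depths of 5162 to 9046 UMIs per cell. The Sham shares of Klk13 were low, and though both values lay above that background, the difference was not tested. Without thinning, Klk5 was in 33.3% and 34.5% of Sham suprabasal cells and in 7.27% to 13.0% in the other 4 libraries. Thinning left out 4 to 57 suprabasal cells per library as too shallow, and the intervals cover counting error only.

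The basal gate held the genes at far lower levels, with another order. In Sham basal cells Klk11 was at 39.4 and 30.7 CPM, Klk8 at 22.5 and 36.0, Klk10 at 12.4 and 16.8 and Spink5 at 8.97 and 10.9, all 4 above Klk7 (3.00 and 7.14) and Klk5 (1.36 and 2.41). Klk11 and Klk8 overlapped with each other. In IMQ against Sham 2 genes rose, 3 fell and 3 did not pass among the 8 tested, where 19.2% of 12747 genes were called. Klk13 rose from 0.178 and 0.699 to 10.6 and 4.38, a log2 fold change of 4.57 (SE 0.64, adjusted p = 0.0018). Klk10 rose to 60.4 and 27.9, a log2 fold change of 1.78 (SE 0.41, adjusted p = 0.0177). In the lowest differentiation bin the groups overlapped for Klk10, at 38.0 and 13.4 CPM in IMQ against 11.6 and 16.7 in Sham, and did not in the second bin, at 68.5 and 34.1 against 18 and 17.3. The lowest bin held 3246 of 3700 and 694 of 818 Sham basal cells but 112 of 375 and 85 of 254 IMQ ones. Cells within 0.5 score units of another layer made up 5.27% and 7.70% of the Sham basal gate and 25.0% to 29.9% in the other 4 libraries, and the part of this shift in the basal results was not tested.

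Klk11 fell in the basal gate, to 6.01 and 3.60 CPM, a log2 fold change of -2.75 (SE 0.43, adjusted p = 0.00311). Klk7 fell to 0.362 and 0.386, a log2 fold change of -3.51 (SE 0.63, adjusted p = 0.00593). Klk5 counted only 2 and 0 UMIs in the IMQ libraries against 69 and 31 in Sham (adjusted p = 0.0302), and the 0 allows up to 0.386 CPM. The pooled Klk5 rate of IMQ was 0.0588 of that of Sham (exact 95% interval 0.00703 to 0.218, counting error only). The Klk5 call was lost when any 1 of the 4 libraries compared was left out (adjusted p from 0.0538 to 0.167). Without IMQ replicate 1 the Klk7 and Klk10 calls were lost as well, at log2 fold changes of -3.47 and 1.08. That fit also called far fewer of all genes. The Klk11 and Klk13 calls held without each library. Spink5 (14.6 and 7.21 against 8.97 and 10.9) overlapped between the groups (adjusted p = 0.626), and Klk6 was too low to test.

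Between IMQ+SHP099 and IMQ, 0 of 8 genes were called in the basal gate by edgeR and 0 by DESeq2, with 0.00784% of 12747 genes called and 436 at an unadjusted p under 0.05. There were 2 genes of the set at an unadjusted p under 0.05. Klk11 was at 14.3 and 9.66 CPM in IMQ+SHP099 against 6.01 and 3.60 in IMQ libraries, a log2 difference of 1.48 (95% interval 0.53 to 2.42, unadjusted p = 0.00624, adjusted p = 1). Both IMQ+SHP099 libraries lay above both IMQ libraries and below both Sham libraries. Klk8 was at 6.96 and 11.5 against 23.5 and 11.2, which overlap, with a log2 difference of -0.88 (95% interval -1.75 to -0.01, adjusted p = 1). Against Sham, 2 genes were higher and 2 lower of 8, with 19.8% of genes called. Klk13 was higher by 4.51 (SE 0.64, adjusted p = 0.00229) and Klk10 by 2.21 (SE 0.42, adjusted p = 0.00817). Klk7 fell by 2.99 (SE 0.61, adjusted p = 0.0109) and Klk8 by 1.43 (SE 0.39, adjusted p = 0.0304). Klk11, with a log2 difference of -1.28, narrowly missed (adjusted p = 0.05002). It passed with DESeq2 (log2 -1.22, DESeq2 adjusted p = 0.0358). By edgeR it passed with no count filter (adjusted p = 0.00119), a replicate block (0.00241), under 5% mitochondrial UMIs (0.0402) and only the groups compared (0.0362). It did not pass with clear layer scores only, with high doublet scores left out or with no layer gate. The calls of Klk13, Klk10, Klk7 and Klk8 were lost without IMQ+SHP099 replicate 1, in a fit that called far fewer of all genes as well. Their log2 differences there were 4.40, 1.78, -2.35 and -1.11. That library had 2557 of the basal cells while the other IMQ+SHP099 library had 140. The Klk8 call was also lost without Sham replicate 2 or IMQ+SHP099 replicate 2 (0.0583 and 0.0803). Cycling cells made up 7.76% and 18.7% of the Sham basal gate and 39.3% to 45.3% in the other 4 libraries, and their part in these differences was not tested.

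In the upper follicle gate fewer differences passed. In IMQ against Sham 0 of 9 genes were called by edgeR and 0 by DESeq2, while 2 had an unadjusted p under 0.05 and 4.71% of 9701 genes were called. These 2 were Klk6 (83.2 and 331 CPM against 85.4 and 53.0, log2 difference 1.72, adjusted p = 0.132) and Klk10 (52.4 and 177 against 11.3 and 61.5, log2 difference 1.93, adjusted p = 0.130), and the groups overlapped for both. Klk5 was at 21.9 and 65.2 against 94.7 and 53.5, Klk8 at 141 and 233 against 191 and 152, and Spink5 at 79.3 and 200.1 against 185 and 105, and all 3 overlapped. In IMQ+SHP099 against Sham 1 of 9 was called, with 4.58% of genes called. This was Klk6, at 309.8 and 499.6 against 85.4 and 53.0, a log2 fold change of 2.70 (SE 0.62, adjusted p = 0.0396), which was lost without Sham replicate 2 or either IMQ+SHP099 library (adjusted p from 0.119 to 0.190). Between IMQ+SHP099 and IMQ 0 of 9 genes were called by edgeR and 0 by DESeq2, with 0 at an unadjusted p under 0.05, 0% of all genes called and 216 of them at an unadjusted p under 0.05. The log2 differences of the 9 ran from -0.92 to 1.17 with 95% bounds from -2.42 to 2.95. This gate had 75 to 251 cells per library.

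Whether IMQ acted differently on the 2 upper compartments was tested as an interaction of gate and group, in which 4.02% of 11675 genes were called. The IMQ effect on Klk5 was higher in the upper follicle than in the suprabasal gate by 2.92 on the log2 scale (SE 0.26, adjusted p = 0.000872). For Klk13 it was lower by a difference of -3.77 (SE 0.86, adjusted p = 0.0459) and for Klk6 by -2.24 (SE 0.51, adjusted p = 0.0459). On the log2 scale the larger fall of Klk5 and the larger increases of Klk13 and Klk6 were thus in the suprabasal gate of these 2. In CPM, mean Klk6 went from 4.88 in Sham to 57.3 in IMQ libraries in the suprabasal gate. In the upper follicle gate it went from 69.2 to 207, with groups that overlapped. The basal gate did not enter this test. For IMQ+SHP099 against IMQ no gene of the set passed this test by edgeR.

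Other genes of cornified layer shedding were read from a list of 28, among them junction proteins, other proteases, inhibitors and further kallikreins. In the suprabasal gate 22 were tested in IMQ against Sham, of which 5 rose and 5 fell, beside 17.5% of all genes called. Slpi, a secreted leukocyte protease inhibitor, rose by 6.85 on the log2 scale (SE 0.66, adjusted p = 0.000382). Cdsn, which encodes the corneodesmosome protein corneodesmosin, fell by 3.90 (SE 0.72, adjusted p = 0.00748). Dsg1a, a desmoglein 1 gene with near-identical copies that could share its reads, fell by 2.47, and the serine protease Htra1 fell by 2.42. In IMQ+SHP099 against Sham 4 rose and 5 fell (18.6% of all genes), among them Slpi (7.88) and the cholesterol sulfotransferase Sult2b1 (1.41) upward and Cdsn (-4.07) and Dsg1a (-2.49) downward. In IMQ+SHP099 against IMQ 0 were called by edgeR and 2 had an unadjusted p under 0.05.

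In the basal gate 4 of 17 tested genes of the list rose and 2 fell in IMQ against Sham, beside 19.2% of all genes. Slpi rose by 5.37, Sult2b1 by 1.81 and the lysosomal protease gene Ctsd by 1.40, while Dsg1a fell by 5.06 on the log2 scale. In IMQ+SHP099 against Sham 3 rose and 1 fell (19.8% of all genes). In the upper follicle gate 1 of 19 rose and 2 fell in IMQ against Sham (4.71% of all genes): the cathepsin gene Ctsl rose by 3.08, and Htra1 fell by 2.87 and F2rl1, the receptor PAR2 that KLK5 can cleave, by 1.76. In IMQ+SHP099 against Sham 3 rose and 0 fell (4.58% of all genes), led by Slpi (4.88), Ctsl (2.60) and Sult2b1 (1.61). Between the layers 17 of 20 tested genes were higher and 2 lower in the suprabasal than in the basal gate (27.5% of all genes higher and 28.1% lower), led by the junction protein gene Dsc1 (6.26), Asprv1 (5.02) and Casp14 (4.75). In the upper follicle gate against the basal gate 12 of 17 were higher and 1 lower (20.3% and 21.6% of all genes), again led by Dsc1 (5.57).

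Over the 18 sums of 6 libraries and 3 gates, Klk5 and Klk7 varied together (Pearson r = 0.94 of log2 levels), as did Klk8 and Spink5 (0.94), Klk9 and Klk11 (0.89) and Klk10 and Klk13 (0.80), whereas Klk5 and Klk10 did not (-0.11). Klk8 also varied with Klk7 (0.92) and Klk5 (0.91), Spink5 with Klk5 (0.88) and Klk7 (0.87), and Klk6 with Klk7 (0.86). The Klk5 and Klk7 pair was thus not separate from the Klk8 and Spink5 pair. The sums share libraries and gates and are described without a test. Among 5184 genes with a mean of at least 20 CPM, those most like Klk8 were Me1 (r = 0.98), Vat1 (0.97), Pcdh1 (0.96), Atp6v1e1 (0.96) and Dgat2 (0.96). Those most like Spink5 were Dsc1 (0.98), Gltp (0.98), Dgat2 (0.97), Elovl4 (0.97) and Pdzk1ip1 (0.96).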

How the data were processed

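Cells of dorsal skin were sequenced by the authors on the 10x Chromium 3′ platform and aligned to GRCm38 (mm10) with Cell Ranger, and the deposited matrices are raw counts of UMIs for each gene in each cell, with no normalization. How reads were assigned by strand is not given in the sources used here. The study's filters were applied here: fewer than 100000 UMIs and 6500 genes per cell, with a mitochondrial share below 10%. Libraries were grouped by their labels.

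Each cell was scored on marker lists as the mean of log(1 + UMIs per 10000). A keratinocyte had its highest score on the keratinocyte list, above 1.25, and was put in the gate of its highest layer score. Cells with a score over 1 for other follicle or sebaceous genes were left out (536 cells), as were basal- or suprabasal-led cells with over 5 Krt79 UMIs per 10000 (711 cells). These cuts were chosen after the scores were seen. The Krt79 cut left out 99 of 6246 and 62 of 1751 keratinocytes in the Sham libraries. It left out 133 of 1309 and 120 of 816 in IMQ, and 253 of 5499 and 44 of 442 in IMQ+SHP099 libraries. The gate interaction was not refitted with these cells kept. Doublets were kept, except in an alternative that left out cells with a Scrublet score above 0.3 (scanpy 1.11.5). The 10 genes and the lists were chosen with earlier results of these data known.

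UMIs were summed per library and gate and tested with edgeR 4.0.16 in R 4.3.3 (quasi-likelihood F test, TMM, filterByExpr, group as the only term, all 6 libraries, threshold 0.05), with Benjamini-Hochberg adjustment over all genes tested. Layers were compared with the library as a block. SEs are the log2 fold change divided by the square root of F. Of the shedding list, at most 4 called genes per comparison with the largest fold changes and a mean of at least 20 CPM were named, beside all 10 genes. Alternatives were DESeq2 1.42.0, no count filter, a replicate block, only the groups compared, under 5% mitochondrial UMIs, clear layer scores, no layer gate, doublet scores and leaving out each library. Keeping high-Krt79 cells, the top differentiation bin and the gate interaction were added after the data were seen. The tests were checked on simulated data. Every adjusted p printed is edgeR's unless another tool is named.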

Additional observations from a re-analysis of the deposited data

Results flagged for a closer look

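The effect of IMQ differed between the upper follicle and suprabasal gates, by an interaction test across all genes with edgeR, for 3 kallikreins. The difference on the log2 scale, upper follicle minus suprabasal, was 2.92 for Klk5 (adjusted p = 0.000872), -2.24 for Klk6 (adjusted p = 0.0459) and -3.77 for Klk13 (adjusted p = 0.0459). The log2 differences of IMQ against Sham in the suprabasal and upper follicle gates were -3.54 and -0.64 for Klk5, 3.90 and 1.72 for Klk6, and 5.08 and 1.35 for Klk13. The Klk6 and Klk13 values lie close to the threshold of 0.05.

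Klk14 gave a signal outside the gates. Of its 206 UMIs, 132 were in 2 cells of IMQ replicate 2 whose leading score was for keratinocyte genes but below the cut, 77 of them in 1 cell. The other 5 libraries had 80 to 181 such cells each, with 0 Klk14 UMIs.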

How the results depend on the processing

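No called gene and no count reversed its direction. The median over the genes in IMQ against Sham did change sign. In the suprabasal gate it went from -0.36 to between 0.08 and 0.34 under 5 of the alternatives named in the report. In the basal gate it went from -1.06 to 0.34 with no layer gate. In the upper follicle gate it went from 0.07 to -0.26 without Sham replicate 2 and to -0.71 without IMQ replicate 2. Of 161 recomputed counts of called genes 149 stayed on the same side or within 1.5 times the main count, 8 moved and 4 gained calls from a count of 0. Without a filter on low counts, the basal IMQ+SHP099 against IMQ count went from 0 to 1 (Klk11), with 0.809% of 20153 genes called. The upper follicle count went from 0 to 3 in IMQ against Sham (6.64% of 16683 genes) and from 1 to 2 in IMQ+SHP099 against Sham (6.98%). The suprabasal counts went from 4 to 5 (Klk7 gained, 16.3% of 19502 genes) and from 5 to 6 (17.0%) in the same order. The basal counts of these 2 contrasts went from 5 to 6 (16.4%) and from 4 to 6 (17.5%). In IMQ against Sham the upper follicle count was 1 with clear layer scores only and 4 over all keratinocytes with no layer gate, which also gave 4 in IMQ+SHP099 against Sham. Leaving out 1 library gave 2 to 5 calls in the basal gate for IMQ against Sham and 0 to 5 for IMQ+SHP099 against Sham, 4 to 5 and 3 to 5 in the suprabasal gate, and 0 and 0 to 1 in the upper follicle gate. It gave 0 in all 3 gates for IMQ+SHP099 against IMQ, and 8 to 9 and 5 to 9 in the layer comparisons. A lone library left in a group was assumed to vary like the others. The share of all genes called was also lower in several of these fits. The lowest suprabasal count was without Sham replicate 1.

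With a replicate block the basal counts were 6 for IMQ against Sham and 5 for IMQ+SHP099 against Sham, with 27.6% and 29.0% of 12747 genes called. The next counts are in the order IMQ against Sham, IMQ+SHP099 against IMQ and IMQ+SHP099 against Sham. The suprabasal counts were 4, 0 and 5, with 18.3%, 0.00781% and 19.0% of 12812 genes called. The upper follicle counts were 0, 0 and 1, with 6.01%, 0% and 6.20% of 9701 genes called. Same-numbered libraries deviated together only weakly (correlations -0.05 to 0.24), so the numbers were not taken as pairs. Of 1399 recomputed values of single genes 1258 were as in the main analysis, 67 moved, 38 passed the threshold newly and 36 no longer passed it. Of 360 recomputed shares of cells at other depths of thinning 247 moved. Levels under about 1 CPM in the basal gate rest on few molecules.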

Other observations

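After Klk14, Klk8 had the largest share of its UMIs outside keratinocytes. The 2529 cells led by lymphocyte markers held 1138 Klk8 UMIs, or 130 CPM. The level was 184 and 116 CPM in Sham, 133 and 137 after IMQ, and 90.2 and 104 with SHP099 added. A Klk8 UMI was found in 37.5% and 40.7%, 37.9% and 38.4%, and 11.2% and 24.7% of lymphocytes in the same order. Spink5, which was about as abundant in keratinocytes, had 10 UMIs in the same cells. In fibroblasts of the same libraries Klk8 was at 1.58 to 12 CPM. Lymphocytes with and without a UMI of Trdc, a gamma delta T cell receptor gene, had Klk8 in 37.0% and 39.7% of cells in Sham replicate 1 and in 36.8% and 40.4% in IMQ replicate 1. The median lymphocyte depths in IMQ+SHP099 replicate 1 were 1238 and 1326 UMIs per cell, with and without a Trdc UMI, against 2292 and 2568.5 in Sham replicate 1. In IMQ+SHP099 replicate 2 the depths were 2334.5 and 2516, and Klk8 was in 25.6% and 23.5% of these cells. The shares were not thinned. Cells led by Schwann cell markers held 97 Klk8 UMIs, or 36.5 CPM. These values were not tested.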
